A study of Mus musculus with 9 samples.

Results

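Mmp3, Mmp10, Mmp13 and Adamts1 are 4 of the 11148 gene rows measured by RNA sequencing in cultured mouse satellite cells, the stem cells of skeletal muscle. They were picked by gene name, and all 4 passed the filter of at least 1 RPKM (reads per kilobase of exon, divided by sequencing depth) in at least 2 of the 9 libraries. The cells came from limb muscle of newborn C57/BL6/DBA mice aged 1 to 3 days, males and females pooled, with no allele named. Cytokine medium was F10 with 15% FBS, FGF (2.5 ng/ml) and a cocktail of IL-1α (5 ng/ml), IL-13 (5 ng/ml), TNF-α (10 ng/ml) and IFN-γ (10 ng/ml). T cell medium was a 50:50 mixture of F10 with 15% FBS and medium conditioned by T cells, with FGF at the same 2.5 ng/ml. Both were sampled at passages P0, P1, P2 and P15, with 1 library for each, and a single P0 library came from F10 medium, whose serum and FGF are not given. All cultures were on collagen-coated dishes. The labels do not say whether later passages continue one culture, so p-values measure only how a difference varies over these 4 passages.

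All 4 genes encode secreted zinc-dependent proteases that cut the extracellular matrix. Mmp3 and Mmp10 encode stromelysin-1 and stromelysin-2, which cleave proteoglycans, fibronectin and laminin and can activate other matrix metalloproteases. Mmp13 encodes collagenase-3, the main interstitial collagenase of rodents, and Adamts1 encodes a protease with thrombospondin repeats that cleaves aggrecan and versican. IL-1 and TNF are textbook inducers of the stromelysins and of collagenase-3 in fibroblasts and chondrocytes, and in muscle these enzymes are known for the turnover of matrix during repair.

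Mmp3, Mmp10 and Mmp13 lie on mm10 chromosome 9 within 237.7 kb and read in the same direction, at chr9:7445822-7455975, chr9:7502352-7510240 and chr9:7272514-7283331, all on the plus strand. Adamts1 lies on the minus strand at chr16:85793827-85803113. Their Ensembl identifiers are ENSMUSG00000043613 for Mmp3, ENSMUSG00000047562 for Mmp10, ENSMUSG00000050578 for Mmp13 and ENSMUSG00000022893 for Adamts1, and each has 10 exons once transcripts are merged. The 150 bases before each start are shown from the RefSeq promoter set (GRCm38.p6), 5′ to 3′ on the gene's strand, because 3 of the 4 genes share a motif there. Capitals mark TGANTCA, the AP-1 motif, and TATAAA, the TATA box. The windows are chr9:7445672-7445821 for Mmp3, chr9:7502192-7502341 for Mmp10, chr9:7272364-7272513 for Mmp13 and chr16:85803114-85803263 for Adamts1. They are set by the RefSeq start, which for Mmp10 differs from the GENCODE start given above.
Mmp3: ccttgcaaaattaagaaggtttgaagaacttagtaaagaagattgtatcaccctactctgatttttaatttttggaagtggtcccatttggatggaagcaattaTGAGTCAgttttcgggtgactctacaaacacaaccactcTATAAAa
Mmp10: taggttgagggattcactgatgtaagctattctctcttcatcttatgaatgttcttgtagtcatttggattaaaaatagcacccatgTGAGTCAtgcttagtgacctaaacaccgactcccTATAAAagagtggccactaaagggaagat
Mmp13: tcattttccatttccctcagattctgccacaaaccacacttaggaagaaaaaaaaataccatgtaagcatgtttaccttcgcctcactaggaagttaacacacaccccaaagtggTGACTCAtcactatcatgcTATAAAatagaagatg
Adamts1: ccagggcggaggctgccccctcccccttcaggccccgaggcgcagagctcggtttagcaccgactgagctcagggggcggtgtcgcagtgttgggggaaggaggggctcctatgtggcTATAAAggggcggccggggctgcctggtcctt
In the 250 bases before each start, searched on both strands, TGANTCA occurred once in Mmp3, once in Mmp10 and once in Mmp13, and in 6.75% of 32851 mouse promoters over the same 250 bases. No match was found in the Adamts1 window. TATAAA stood once in each of the 4 windows, against 12.4% of all promoters. AGGAAG, the core of the PEA3 site bound by ETS factors, occurred once in Mmp3, 2 times in Mmp13 and in neither of the others (29.5% of promoters). TGTGGTT, the core of the Runx site, occurred once in Mmp13 (4.4% of promoters), and the kappaB pattern GGG, any 3 bases, TTCC was in none of the 4 windows (4.65%). The 150 bases shown for Adamts1 were 69.3% G and C, against 35.3% for Mmp3, 39.3% for Mmp10 and 38.7% for Mmp13. A match is a description of letters and not a bound site.

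Gene names in the table needed a check, because most row names go with other genes' values: the row called Actb averaged 0.00264 RPKM. A fitted shift between row coordinates and annotated exons left 808 rows (7.25%) whose names could be used, these 4 among them, and the 49 other rows named for an Mmp, Adam or Adamts gene were not used. For the chromosome 9 segment the best shift was -360 bases, and at that shift only 7.2% of Mmp10, 16% of Mmp3 and 43.7% of Mmp13 exon sequence was covered by the gene's own exons. On Adamts1's segment the shift was -40 bases and the share was 92.5%. With zero shift the fit was 3.51 log-likelihood units worse on chromosome 9 and 0.2 units worse on chromosome 16. Levels of the 3 Mmp genes may therefore be too low, and by unequal factors. Whether each factor is the same in every library was not tested, and the order of these genes' levels within a library can turn with it. Depth of the first column of each library ran between 13 and 18.2 M reads as recovered from the values, and no row for a satellite cell marker had a usable name, so the labelled cell type could not be checked here.

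Mmp3 rose in cytokine medium relative to T cell medium, and its level was higher at each of the 4 passages. Its level in cytokine medium was 5.86, 8.08, 9.42 and 0.446 RPKM at P0, P1, P2 and P15, from 160, 276, 249 and 11 reads. T cell medium gave 1.78, 0.162, 0.0354 and 0.0736 RPKM, from 43, 5, 1 and 2 reads, and F10 medium gave 0.313 RPKM from 9 reads. The first 3 cytokine libraries stood above all others. The P15 cytokine library lay below the P0 library of T cell medium, so the media overlapped across passages. Overlap within a passage cannot be judged, because each medium has 1 library there. The mean was 5.95 ± 3.95 RPKM in cytokine medium and 0.512 ± 0.845 RPKM in T cell medium (SD over 4 passages each). In bulk RNA, fewer cells that express a gene and less RNA per cell cannot be told apart, which holds for every level given here.

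Mmp10, stromelysin-2, had successively higher levels at the early passages in cytokine medium. It was at 3.14, 22.8, 52.0 and 13.7 RPKM at P0, P1, P2 and P15 in cytokine medium, from 85, 714, 1393 and 300 reads. T cell medium gave 0.432, 0.601, 0.185 and 10.3 RPKM, from 9, 18, 5 and 274 reads, and F10 medium gave 0.490 RPKM from 14 reads. The P15 library of T cell medium stood apart from the 3 earlier ones and near the P15 library of cytokine medium. The means were 22.9 ± 21.0 RPKM in cytokine medium and 2.88 ± 4.96 RPKM in T cell medium (SD over 4 passages each).

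Mmp13, the collagenase, also had its highest level at P2 in cytokine medium. It was at 3.32, 16.6, 72.0 and 6.4 RPKM at P0, P1, P2 and P15 in cytokine medium, from 132, 786, 3009 and 219 reads. In T cell medium it was at 1.60, 1.10, 0.893 and 6.17 RPKM, from 57, 46, 36 and 258 reads, and in F10 medium at 0.489 RPKM from 19 reads. All 4 cytokine libraries lay above the 3 early T cell libraries, while the P15 T cell library exceeded the P0 cytokine library. The means were 24.6 ± 32.1 RPKM in cytokine medium and 2.44 ± 2.50 RPKM in T cell medium (SD over 4 passages each).

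Adamts1, the aggrecan- and versican-cleaving member, differed between the media by at most 1.23-fold at any passage. It was at 6.36, 5.32, 5.55 and 2.70 RPKM at P0, P1, P2 and P15 in cytokine medium, from 507, 515, 449 and 187 reads. In T cell medium it was at 7.0, 4.36, 5.19 and 2.38 RPKM, from 493, 370, 449 and 199 reads, and in F10 medium at 5.01 RPKM from 385 reads. The 2 P15 libraries were the lowest of the 9, and the media overlapped at the early passages. The means were 4.98 ± 1.59 RPKM in cytokine medium and 4.73 ± 1.91 RPKM in T cell medium (SD over 4 passages each).

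**Figure D1:**
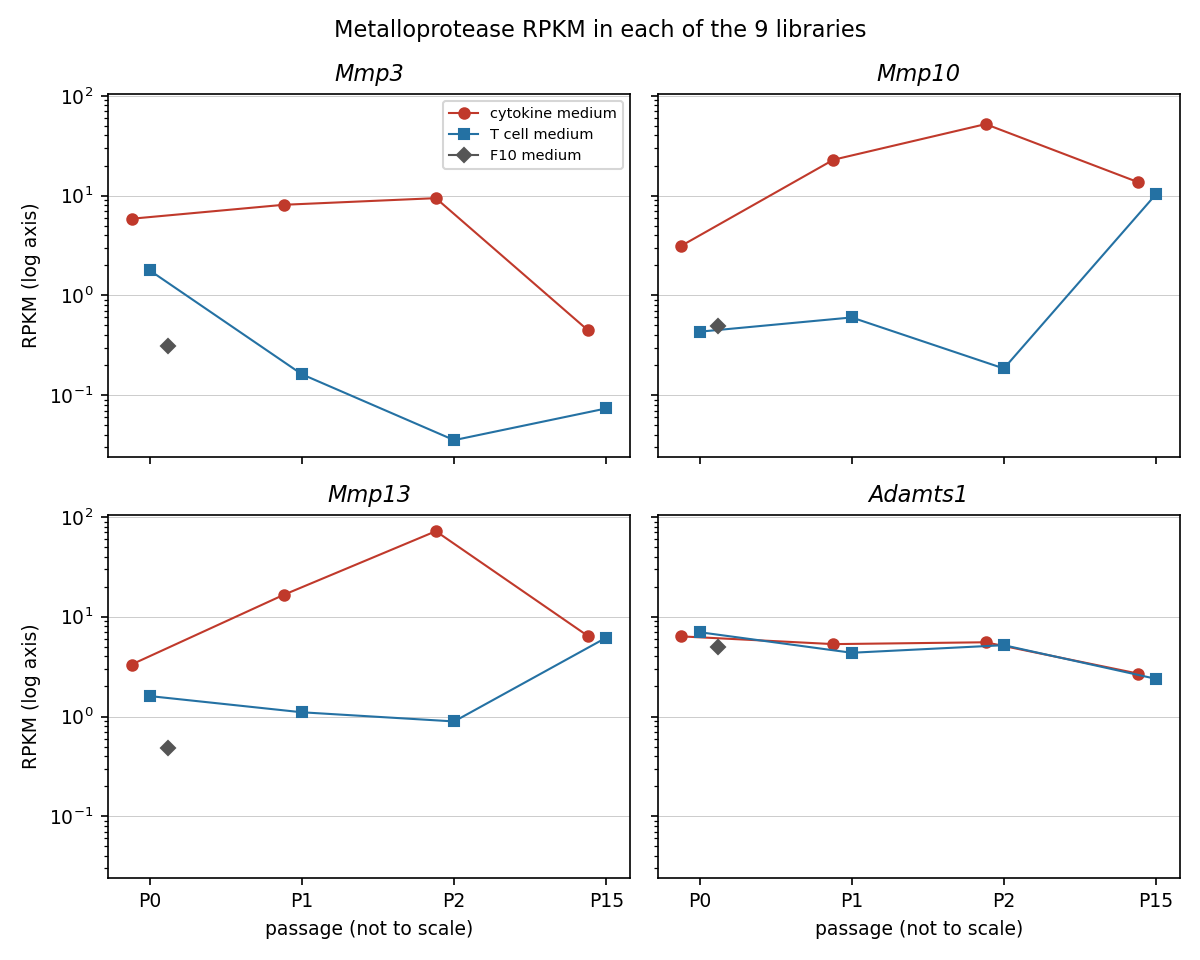
RPKM (log axis) of Mmp3, Mmp10, Mmp13 and Adamts1 by passage (not to scale); each point is 1 library, lines join the passages of a medium, and the diamond is the F10 library. Mmp10 and Mmp13 peak at P2 in cytokine medium (52.0 and 72.0 RPKM), and at P15 their levels in both media lie close together.

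When the 9 libraries were put in order of level, counting error alone left many neighbours undecided. Each gene has 8 neighbouring pairs, and the 95% interval of the ratio of reads (exact, for counting error only) included a ratio of 1 for 5 of the pairs in Mmp3, 3 in Mmp10, 4 in Mmp13 and 6 in Adamts1. For Mmp3 the P2 and P1 cytokine libraries were not resolved from each other (ratio 1.04, interval 0.875 to 1.24), nor were neighbours among the 5 lowest libraries. For Mmp10 the 5 highest libraries were each set apart from the next, ending with the P0 cytokine library above the P1 T cell library by 5.01-fold (interval 2.99 to 8.86). For Mmp13 the P15 libraries of the media were not resolved from each other (ratio 1.04 for cytokine over T cell medium, interval 0.860 to 1.24). For Adamts1 the 2 resolved steps were P0 over P2 within cytokine medium (1.18-fold, interval 1.04 to 1.34) and the P1 T cell over the P15 cytokine library (1.60-fold, interval 1.34 to 1.92).

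Of the 4 genes, 1 was called higher in cytokine than in T cell medium over the 4 passages and none lower, by limma on log2(RPKM + 1) with passage as a term and Benjamini-Hochberg adjustment over 3503 rows. Over all rows tested 4.85% were called higher and 5% lower, with a median difference of 0.025. Mmp3 differed by 2.01 ± 0.46 (SE; adjusted p = 0.045). Mmp10 differed by 2.82 ± 0.77 (adjusted p = 0.0625) and Mmp13 by 2.28 ± 0.80 (adjusted p = 0.110), both higher in cytokine medium in 4 of 4 passages and neither past the threshold of 0.05. Adamts1 differed by 0.08 ± 0.08 (adjusted p = 0.504), higher in 3 of 4 passages. The difference itself varied between passages with an SD of 1.37 for Mmp3, 2.30 for Mmp10, 2.38 for Mmp13 and 0.15 for Adamts1. The call for Mmp3 was lost without the passage term (adjusted p = 0.0985), with no filter on low values (adjusted p = 0.268), in an exact permutation test within passages (two-sided p = 0.125, the smallest possible) and when P0, P1 or P2 was left out (adjusted p = 0.133, 0.166 and 0.125), and its difference was 3.61 with a pseudocount of 0.1 RPKM. Mmp3 and Mmp10 passed the filter through their cytokine libraries, as for each gene 1 other library reached 1 RPKM. For Mmp10 that library was P15 in T cell medium, which a fit without P15 leaves out. Without P15, Mmp10 (3.64, adjusted p = 0.0194) and Mmp13 (3.02, adjusted p = 0.0425) passed the threshold. In that fit 245 of the 3503 rows were called higher and 302 lower. The call of Mmp10 there is not independent of the filter, because only its cytokine libraries reached 1 RPKM.

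Passage by passage, with 1 library of each medium and no test, the medium difference of the 3 Mmp genes was larger at P1 and P2 than at P0, and at P15 it was small for Mmp10 and Mmp13. At P0, Mmp3 was 3.30-fold higher in cytokine medium (95% counting interval 2.34 to 4.74), Mmp10 8.38-fold (4.21 to 19.0) and Mmp13 2.05-fold (1.5 to 2.85). At P1 the ratios were 48.6 for Mmp3 (20.6 to 151), 34.9 for Mmp10 (21.9 to 59.2) and 15.0 for Mmp13 (11.2 to 20.7). At P2 they were 289 for Mmp10 (124 to 892) and 86.7 for Mmp13 (62.5 to 124), while Mmp3, with 1 read in T cell medium, gave 258 (46.0 to 10250). At P15 they were 1.34 for Mmp10 (1.13 to 1.58), 1.04 for Mmp13 (0.860 to 1.24) and, with 2 reads in T cell medium, 6.71 for Mmp3 (1.46 to 62.3). The ratio for Adamts1 stayed between 0.912 at P0 and 1.23 at P1.

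On the log2(RPKM + 1) scale, where called means at least 2-fold apart, 2 of the 4 genes were higher in cytokine medium at P0 (Mmp3 by 1.30 and Mmp10 by 1.53; 0.799% of all rows). At P1 it was 3 of 4 (Mmp3 2.97, Mmp10 3.90, Mmp13 3.06; 1.26% of rows) and at P2 again 3 of 4 (3.33, 5.48 and 5.27 in the same gene order; 1.54% of rows). At P15 none of the 4 reached it (0.43, 0.37 and 0.05 in that order, Adamts1 0.13; 0.343% of rows). None of the 4 was 2-fold lower at any passage, where the shares of all rows were 1.63% (P0), 1.74% (P1), 3.77% (P2) and 0.0571% (P15).

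Against the F10 library at P0, Mmp3, Mmp10 and Mmp13 were at least 2-fold higher in cytokine medium (3 of 4 genes; 2.14% of all rows), and Mmp3 alone was so in T cell medium (1 of 4; 1.51% of rows). None of the 4 was 2-fold lower in either medium, where 1.57% of rows were lower with cytokines and 0.514% in T cell medium. Both comparisons share the F10 library, so they are not independent, and serum and FGF cannot be told apart from the other additions. In cytokine medium Mmp3 was 17.4-fold higher than in F10 (95% counting interval 8.94 to 38.7), Mmp10 5.94-fold (3.35 to 11.3) and Mmp13 6.80-fold (4.19 to 11.7). In T cell medium Mmp3 was 5.27-fold higher than in F10 (2.54 to 12.3) and Mmp13 3.31-fold (1.94 to 5.89). The Mmp13 difference of 0.81 on the log2(RPKM + 1) scale was under 2-fold. For Mmp10 in T cell medium the ratio was 0.709 with an interval of 0.271 to 1.76, and a difference from F10 was not detectable at this depth. Adamts1 was 1.29-fold higher in cytokine medium (1.13 to 1.48) and 1.41-fold higher in T cell medium (1.23 to 1.62). There is no replicate behind these ratios.

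**Figure D2:**
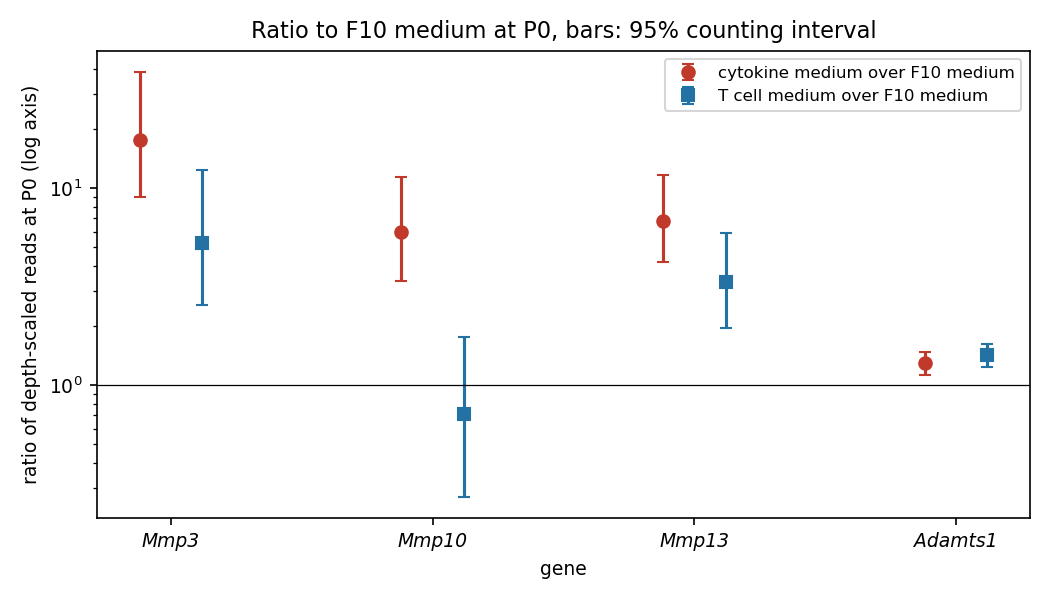
Ratio of depth-scaled reads at P0 for each of cytokine and T cell medium over F10 medium, on a log axis, for the 4 genes; bars are 95% counting intervals and both ratios share the F10 library. The cytokine ratios of Mmp3, Mmp10 and Mmp13 (17.4, 5.94 and 6.80) lie above 1 with their intervals, and the T cell interval of Mmp10 (0.271 to 1.76) holds 1.

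Within cytokine medium the 3 Mmp genes did not move in parallel. Mmp10 was 6.96-fold higher at P1 than at P0 and 2.25-fold higher at P2 than at P1, and Mmp13 4.94-fold and 4.42-fold. Mmp3 was 1.43-fold higher at P1 than at P0 and 1.04-fold higher at P2 than at P1. At P15 the ratio to P2 was 0.0538 for Mmp3, 0.262 for Mmp10 and 0.0886 for Mmp13. Within T cell medium Mmp3 at P1 was 0.0972 of its P0 level, while Mmp10 at P15 was 56.8-fold higher than at P2 (24.0 to 176) and Mmp13 7.42-fold (5.22 to 10.8).

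The Mmp3 share of the summed Mmp level was lower at each later passage in both media. The sum of the 3 genes was 12.3, 47.5, 133 and 20.5 RPKM at P0, P1, P2 and P15 in cytokine medium, 3.81, 1.86, 1.11 and 16.6 RPKM in T cell medium, and 1.29 RPKM in F10 medium. Mmp3 made up 47.6, 17.0, 7.1 and 2.2% of it at P0, P1, P2 and P15 in cytokine medium, 46.6, 8.7, 3.2 and 0.4% of it in T cell medium, and 24.2% in F10 medium. The Mmp3 shares at P1, P2 and P15 in T cell medium rest on 5, 1 and 2 reads. There the counting interval of the Mmp3 ratio of P2 to P1 (0.00414 to 1.75) holds 1, so that step is not resolved. By the deposited values Mmp10 was the largest part at P15 in both media, with 66.6% for cytokine and 62.3% for T cell medium. Mmp13 was the largest part at P2 in both, with 54.0% and 80.2% in that order. These shares inherit the different exon coverage of the 3 rows, which can turn the order between genes. Mmp3 and Mmp10 transcripts are 77.7% identical over 1678 aligned bases with a longest shared run of 104 bases, so reads from such stretches could be split between the 2 rows, whereas Mmp13 is 62.8% identical to Mmp3 and 63.7% to Mmp10.

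**Figure D3:**
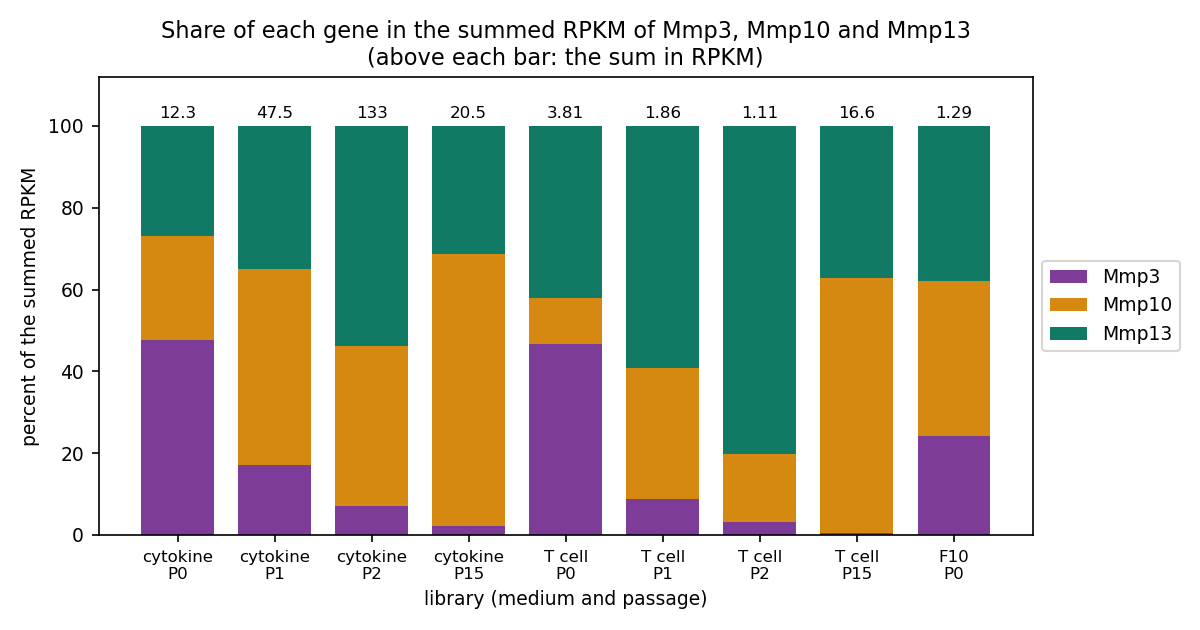
Percent of the summed RPKM taken by Mmp3, Mmp10 and Mmp13 in each of the 9 libraries, with the sum in RPKM above each bar. Mmp3 takes 47.6% at P0 for cytokine and 46.6% for T cell medium, and 2.2% and 0.4% at P15 (from 11 and 2 reads).

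The P15 libraries were set against P0 to P2. P15 is 1 difference between media, with no spread of its own, and is taken to vary like the earlier ones. The medium difference at P15 minus its mean over the 3 earlier passages was -2.10 ± 0.72 for Mmp3 (SE; limma adjusted p = 0.642), -3.26 ± 1.30 for Mmp10 (adjusted p = 0.734), -2.98 ± 1.49 for Mmp13 (adjusted p = 0.766) and 0.06 ± 0.19 for Adamts1 (adjusted p = 0.972). None passed, against 0% of all rows toward T cell medium and 0.0571% toward cytokine medium. At an unadjusted p under 0.05, 90 rows went toward T cell medium and 143 toward cytokine medium. Leaving out an early passage leaves 2 earlier differences to give the spread. The value for Mmp3 was then -2.72 without P0, -1.89 without P1 and -1.71 without P2. For Mmp10 it was -4.32, -3.13 and -2.34 in the same order.

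Within cytokine medium, P15 minus the early passages was -2.58 ± 0.51 for Mmp3 (limma adjusted p = 0.168), -0.24 for Mmp10 (adjusted p = 0.975), -1.26 for Mmp13 (adjusted p = 0.791) and -0.86 ± 0.21 for Adamts1 (adjusted p = 0.332). None of the 4 was called, against 0% of rows higher and 0.0285% lower (101 higher and 221 lower at an unadjusted p under 0.05). For Mmp3 the value was -2.75 without P0, -2.55 without P1 and -2.45 without P2. Within T cell medium it was -0.48 for Mmp3 (limma adjusted p = 0.755), 3.02 ± 1.12 for Mmp10 (adjusted p = 0.371), 1.72 for Mmp13 (adjusted p = 0.634) and -0.92 ± 0.21 for Adamts1 (adjusted p = 0.169), and 0% of rows were called in either direction (174 higher and 233 lower at an unadjusted p under 0.05).

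Over both media together, a fit added after the data were seen, P15 minus the early passages was -0.89 ± 0.14 for Adamts1 (SE; limma adjusted p = 0.0457), and it was the only one of the 4 genes called, where 0.228% of rows were called higher and 0.257% lower. This fit takes libraries of the same passage as independent. With the media averaged within each passage, so that P15 is 1 value against 3, the adjusted p for Adamts1 was 0.222 and none of the 4 genes was called. In the first fit its adjusted p was 0.0690 without P1, 0.0705 without P2, 0.0564 after libraries were scaled to equal sums and 0.143 with no filter on low values. Mmp3 differed by -1.53 ± 0.49 (adjusted p = 0.171), Mmp10 by 1.39 (adjusted p = 0.450) and Mmp13 by 0.23 (adjusted p = 0.919).

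Among the genes within 1 Mb of Mmp3, 7 others had usable names and passed the filter. Of these, 1 was called higher in cytokine medium and none lower (medium difference, 4.85% and 5% of all rows), with a median of 0.132. The called gene was Birc3, an inhibitor of apoptosis and a known NF-kappaB target, at 3.59, 3.15, 2.61 and 1.06 RPKM at P0, P1, P2 and P15 in cytokine medium. In T cell medium it was at 0.648, 0.291, 0.570 and 0.607 RPKM and in F10 medium at 0.402 RPKM, a medium difference of 1.18 (limma adjusted p = 0.0303). Birc3 was tested only because its cytokine libraries passed the filter, as no other library reached 1 RPKM. Its call is therefore not independent of the filter. The per-passage differences of the other 6 neighbours lay between -0.597 and 0.673. All 7 neighbours lie in the chromosome 9 segment with the fitted shift of -360 bases, so their levels may also be too low. Around Adamts1, 4 genes within 1 Mb could be tested and none was called.

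**Figure D4:**
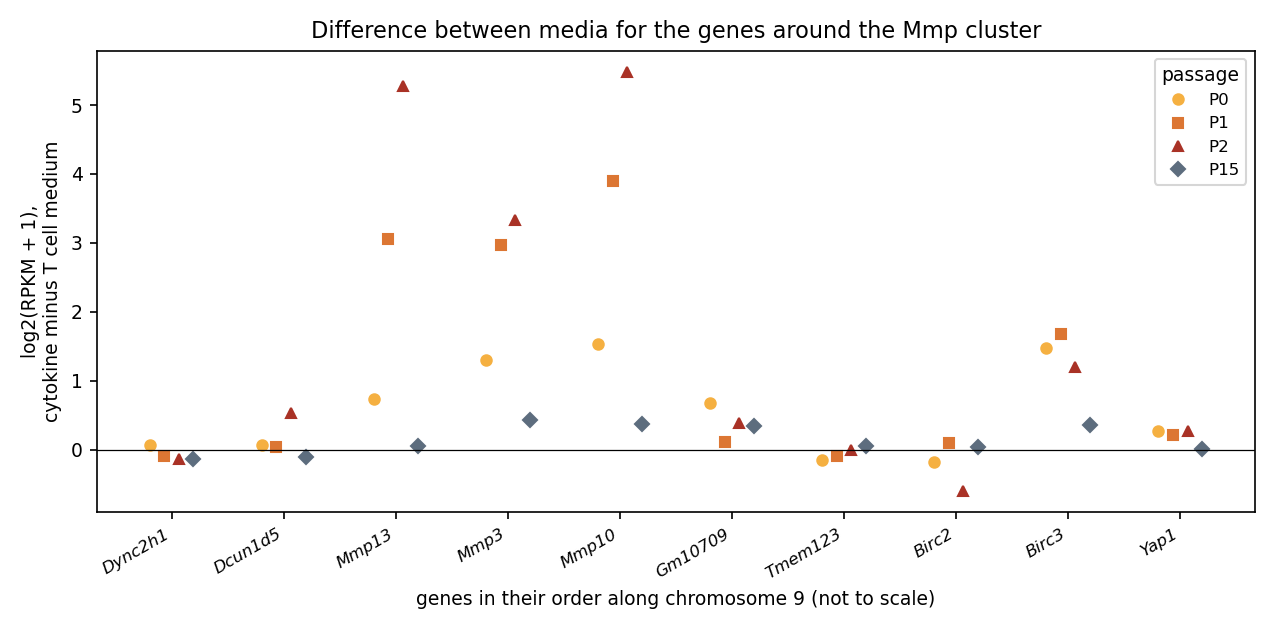
Difference in log2(RPKM + 1), cytokine minus T cell medium, for the genes within 1 Mb of Mmp3 that could be tested and the 3 Mmp genes, with 1 point per passage. Genes stand in their order along chromosome 9. Mmp10 reaches 5.48 and Mmp13 5.27 at P2, Birc3 lies between 0.358 and 1.68, and the other 6 genes lie between -0.597 and 0.673.

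The gene and marker lists below were chosen with earlier results of these data known. Their counts against the share of all rows are therefore not independent support. Among genes of the NF-kappaB, TNF and IL-1 response, 4 of 26 listed could be tested, and 2 rose in cytokine medium while none fell (4.85% and 5% of all rows), with a median difference of 0.129. One was Birc3, already counted above, which passed the filter only through its cytokine libraries. The other was Nfkbiz, an atypical nuclear IkappaB protein that acts as a cofactor of NF-kappaB, with a difference of 0.42 (limma adjusted p = 0.0434). Nfkbiz was at 16.5, 21.3, 30.3 and 33.0 RPKM at P0, P1, P2 and P15 in cytokine medium, 12.3, 12.7, 24.7 and 26.8 RPKM in T cell medium and 1.98 RPKM in F10 medium. Steap4, a metalloreductase, had a difference of -0.40, and Birc2, an inhibitor of apoptosis, of -0.16.

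Of the AP-1 and ETS factors 4 of 22 could be tested, with a median of 0.287, and 1 rose and none fell (4.85% and 5% of all rows). It was Batf2, a basic leucine zipper factor that pairs with Jun proteins, at 6.97, 16.6, 20.9 and 11.3 RPKM at P0, P1, P2 and P15 in cytokine medium. Batf2 in T cell medium was at 1.62, 3.14, 1.84 and 3.14 RPKM and in F10 medium at 0.0293 RPKM (difference 2.05, limma adjusted p = 0.0134). Fosl1, the AP-1 subunit Fra-1, was at 15.0, 16.3, 21.2 and 24.2 RPKM in cytokine medium, 9.21, 12.1, 7.74 and 20.1 RPKM in T cell medium and 14.6 RPKM in F10 medium, with a difference of 0.66 that missed the threshold (adjusted p = 0.0565). The ETS factors Etv5 and Gabpa had differences of -0.24 and -0.09.

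Of the protease inhibitors and matrix substrates 3 of 31 could be tested, and 1 rose and 2 fell (4.85% and 5% of all rows). Col4a1 and Col4a2, the chains of basement membrane collagen, fell in cytokine medium by 1.39 (limma adjusted p = 0.0174) and 1.34 (adjusted p = 0.0173). Col8a1, a chain of a short network collagen, rose by 1.41 (adjusted p = 0.0239). Col4a1 was at 5.35, 1.86, 3.72 and 10.3 RPKM at P0, P1, P2 and P15 in cytokine medium, 13.1, 9.23, 15.0 and 19.0 RPKM in T cell medium and 36.8 RPKM in F10 medium. The levels of Col4a1 in cytokine medium were the lowest at P1 and the highest at P15. No tissue inhibitor of metalloproteases had a usable name.

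The 4 usable differentiation markers of muscle moved with the medium. Actn3, Myom2, Pygm and Srl, genes of the contractile fibre and its energy and calcium supply, summed to 11.0 to 27.1 RPKM in cytokine medium, 26.5 to 224.5 RPKM in T cell medium and 67.0 RPKM in F10 medium, and 4 of 4 fell in cytokine medium (5% of all rows did). The sum in T cell medium was lowest at P15, where Mmp10 and Mmp13 were highest. Their part in the Mmp differences was not tested. Of the 10 called genes of these lists, from Birc3 to Srl, all 10 kept their call without P15, 4 with no passage term, 1 without P2 (Batf2) and 0 without P0, without P1 or with no filter on low values. The fibroblast marker Pdgfd ranged over 0.485 to 5.82 RPKM in cytokine medium and 0.448 to 7.10 RPKM in T cell medium. The macrophage markers Cd80 and Cd86 summed to 0.624 to 2.45 RPKM and 1.05 to 4.11 RPKM in the same order, with Cd86 at 0.0181 RPKM or less. The nerve markers Stmn2 and Gap43 summed to 3.76 to 44.6 RPKM in cytokine medium and 3.24 to 21.4 RPKM in T cell medium. Their medium differences had opposite signs (-0.125 for Stmn2 and 1.127 for Gap43), and neither was called. No row for a T cell, neutrophil, endothelial or chondrocyte marker had a usable name.

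The genes whose patterns were most alike were sought among 564 rows with usable names, by Pearson's r of log2(RPKM + 1) over the 9 libraries, which share media and passages and are given with no test. Mmp10 and Mmp13 were each other's closest (r = 0.955), though over the 8 libraries without F10 Rab20 was closer to Mmp10 (0.954, against 0.95 for Mmp13). Mmp3 was less close to Mmp13 (0.719) and Mmp10 (0.606). Both Mmp10 and Mmp13 were followed by Rab20, a small GTPase of membrane traffic (0.946 and 0.926), and Hcls1, a haematopoietic relative of cortactin (0.939 and 0.927). Hcls1 was at 0.437, 1.51, 1.73 and 0.95 RPKM at P0, P1, P2 and P15 in cytokine medium, 0.0148, 0.0771, 0.0998 and 0.287 RPKM in T cell medium and 0.0414 RPKM in F10 medium. Hcls1 reached 1 RPKM only at P1 and P2 in cytokine medium, and Rab20 only there and in the P15 libraries of both media. Those libraries were the highest in Mmp10 and Mmp13, so the likeness is not independent of the filter. Mmp3 was closest to Leprel1, a collagen prolyl 3-hydroxylase (0.932), Eif4g1, a scaffold of translation initiation (0.928), and its neighbour Birc3 (0.917). Over 8 libraries Senp2 (0.938) stood in the place of Birc3. The size of a change does not enter r. Over the 9 libraries Mmp3 ranged from 0.0354 to 9.42 RPKM, but Eif4g1 only from 129 to 178 RPKM and Senp2 from 13.5 to 17.2 RPKM. Rab20 ranged from 0.513 to 1.71 RPKM. Adamts1 was closest to Gm608 (0.913), to Arid1b, a subunit of the BAF remodelling complex (0.905), and to Kif5b, a kinesin heavy chain (0.886). Between Adamts1 and the Mmp genes r was 0.549 for Mmp3, -0.296 for Mmp10 and -0.069 for Mmp13.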

How the data were processed

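RPKM values of 9 libraries were analysed as deposited, with 2 columns per library per the file headers; what the numbers stand for and how the RPKM were scaled: not given in the sources used here. TopHat2 2.0.1, HTSeq 0.5.4p2 and mm10 are named per the submitters' processing notes, without roles. Low values were whole multiples of 1 read, which gave the relative depths. The step of 1 read in a row gave its read numbers, and exon lengths gave the depths in M reads. The 2 columns of a library differ by less than independent reads would (chi-square per row 0.424 to 0.449, where independent reads give about 1). Their depth ratio was 0.917 to 0.927. The columns are therefore not independent, and their mean was counted as 1 sample. Read numbers are those of the first column, counting intervals are exact 95% intervals, and both are approximate. On the scale of the F10 column, rows gave depths of 12.1 to 14.8 M reads (quartiles). The depths of all other libraries were scaled from this estimate and share its uncertainty.

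Row names were checked by fitting stepwise shifts per chromosome (40 bp grid, up to 8 Mb, cost 13 per change) to GENCODE vM21 exons; 11105 of 11148 identifiers matched. Names were used only in a chromosome's first segment where zero shift lost no more than 5 log-likelihood units to the best shift, without its last 3 rows before a change. Fits used limma 3.58.1 in R 4.3.3 on log2(RPKM + 1), which understates changes of low genes, over 3503 rows with at least 1 RPKM in at least 2 of 9 libraries, with Benjamini-Hochberg adjustment, and were tested on simulated data. Passage was the block; deviations of same-passage libraries from their medium mean correlated (P0 0.7, P1 0.328, P2 0.147, P15 0.463), with the passage taken from the labels.

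Named genes are the 4 members, the 3 usable rows most correlated with each, and every usable row of the lists, a few by name. The members, the lists and the rule for usable names were chosen with earlier results of these data known. Promoter and transcript sequences are RefSeq's (GRCm38.p6) and GENCODE's. Alternatives changed the pseudocount, filter, scaling, columns, block, variance trend, fold threshold and the passages used.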

Additional observations from a re-analysis of the deposited data

Results flagged for a closer look

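Of the 8 sets of 4 libraries examined (each of the 4 genes in each medium), 2 had a library far from the rest on the log2(RPKM + 1) scale; chance gives about 1 in 20, and the passages of a set are not replicates of one condition. For Mmp3 in T cell medium, the gap between the P0 library (1.78 RPKM) and the next was 0.883 of the whole range. For Mmp10 in T cell medium, the gap between the P15 library (10.3 RPKM) and the next was 0.867 of the range.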

How the results depend on the processing

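The cytokine minus T cell difference kept its sign for all 4 genes under all alternatives run. For Mmp3 it stayed at 2.01 but missed the threshold with no filter (adjusted p = 0.268), with no replicate block (adjusted p = 0.0985) and in the exact permutation test within passages (two-sided p = 0.125, the smallest that 4 passages allow). Leaving out 1 passage of both media in turn gave 1.57 to 2.53 for Mmp3, 1.93 to 3.64 for Mmp10 and 1.28 to 3.02 for Mmp13. The rows called were 170 higher and 175 lower, 0 and 0 with no filter (of 10934 rows, with 843 and 843 at an unadjusted p under 0.05), 38 and 26 with no replicate block, and 8 to 245 higher and 1 to 302 lower with a passage left out. Leaving out the block changed no other call of the 4 genes; averaging the media within passages ended the P15 call of Adamts1 over both media (adjusted p = 0.222). Members at least 2-fold higher against F10 were 3 in cytokine medium, or 1 at a 3-fold threshold, and 1 in T cell medium, or 2 with a pseudocount of 0.1 RPKM and 0 at 3-fold. Between the media, P0 gave 2, or 0 at 3-fold and 3 with a pseudocount of 0.1, and P15 gave 0, or 1 with a pseudocount of 0.1. Signs turned for small values that passed no test: Mmp10 in T cell medium against F10 (-0.06, or 0.044 with the second column only), the P15 change of Adamts1 (0.06, with -0.032 to 0.15 when a passage is left out and -0.032 without P0), Mmp10 at P15 in cytokine medium (-0.24, with -1.28 to 0.56, the last without P2) and Mmp13 at P15 over both media (0.23, with -0.21 without P0 to 0.69 without P2). The causes were not tested. With 5 or fewer reads of Mmp3 at P1 to P15 in T cell medium, depth limits those ratios. No other promoter window was run.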
